A study of Mus musculus with 43 samples.

Results

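The Ms4a genes encode small membrane proteins that span the membrane several times and are built on the plan of CD20. The 10 genes described here are Ms4a1, Ms4a2, Ms4a3, Ms4a4b, Ms4a4c, Ms4a6b, Ms4a6c, Ms4a6d, Ms4a7 and Ms4a8a, taken by symbol from a list of family members that mark different blood lineages. They are 10 of the 56941 gene identifiers counted and 10 of the 21 genes that RefSeq names Ms4a. The data are RNA sequencing counts of 43 libraries of sorted mouse bone marrow cells. The study asked how a small clone of cells with the JAK2V617F mutation, an activating change of the kinase JAK2 found in myeloproliferative neoplasms, relates to the normal marrow around it. Each recipient was a wild-type mouse with the CD45.1 form of the pan-leukocyte protein CD45, was not conditioned, and was given 5 M (M, 1000000) whole marrow cells of JAK2V617F mice with the CD45.2 form. The promoter or Cre that drives the mutant allele is not given in the sources used here, and all recipients and controls carried only normal Jak2 of their own.

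Donor cells were the CD45.2-positive marrow cells of 7 recipients, and host cells were the CD45.1-positive marrow cells of the same 7 recipients. Control cells were CD45.1-positive marrow cells of 8 wild-type mice without a transplant, matched in age and sex. Stroma was sorted from the same 7 recipients and the same 8 controls as cells negative for both CD45 forms and for surface markers of NK cells (NK1.1), T cells (CD4 and CD8), myeloid cells (Ly-6G/Ly-6C and CD11b), B cells (B220) and red cells (Ter119). Sorting of these 5 groups took place about 7 months after the transplant, and each held both sexes. The CD11b cells were CD45.1-positive, CD11b-positive marrow cells of 3 other recipients and 3 other controls, all male, at 52 weeks. No group received normal marrow, so effects of the graft and of its mutation cannot be told apart. The final chimerism in blood was 0.63 to 5.99 in the 7 recipients, and the labels give it no unit.

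Ms4a1 is CD20, the surface protein of B cells that is the target of therapeutic antibodies. Ms4a2 is the beta chain of the high-affinity receptor for IgE, which mast cells and basophils carry. Ms4a3 is made by dividing precursors of granulocytes and monocytes, and Ms4a4b by T cells, where it tempers activation. Ms4a4c, Ms4a6b, Ms4a6c, Ms4a6d and Ms4a7 are made mainly by monocytes and macrophages, and Ms4a8a has been described in subsets of macrophages. In marrow, levels of such genes therefore follow both the mix of cells and the RNA per cell, and in bulk sorted samples fewer cells of a type and less RNA per cell cannot be told apart.

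All 21 Ms4a genes lie in one stretch of chromosome 19 that holds 32 RefSeq genes, 22 of them protein-coding. RefSeq promoter windows, from 250 bases before to 50 bases after the start of the gene, were found for 8 of the 10 genes on GRCm38.p6; Ms4a1 and Ms4a6d were not matched. Among the 28 pairs of these promoters, 2 pairs stood above the others in the sequence they share, and they are shown because their genes are described side by side below. Ms4a6b (chr19:11518309-11518608, plus strand) and Ms4a6c (chr19:11469118-11469417, plus strand) were 51.2% identical and shared a run of 48 bases, given in capitals:
Ms4a6b: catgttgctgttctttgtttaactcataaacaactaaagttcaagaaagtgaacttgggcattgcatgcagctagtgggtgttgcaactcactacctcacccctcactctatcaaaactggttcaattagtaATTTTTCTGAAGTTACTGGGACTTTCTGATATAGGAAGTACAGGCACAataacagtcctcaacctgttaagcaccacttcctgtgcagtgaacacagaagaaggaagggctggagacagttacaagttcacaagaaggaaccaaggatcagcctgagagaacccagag
Ms4a6c: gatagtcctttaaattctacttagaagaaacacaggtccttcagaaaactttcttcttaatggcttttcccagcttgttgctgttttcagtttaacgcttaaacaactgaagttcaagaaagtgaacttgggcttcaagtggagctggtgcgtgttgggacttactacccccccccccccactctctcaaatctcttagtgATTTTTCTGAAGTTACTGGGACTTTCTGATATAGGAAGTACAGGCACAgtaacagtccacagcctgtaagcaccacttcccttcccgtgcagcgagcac
The promoters of Ms4a4b (chr19:11443308-11443607, plus strand) and Ms4a4c (chr19:11407411-11407710, plus strand) were 72.1% identical, with a longest shared run of 20 bases, in capitals:
Ms4a4b: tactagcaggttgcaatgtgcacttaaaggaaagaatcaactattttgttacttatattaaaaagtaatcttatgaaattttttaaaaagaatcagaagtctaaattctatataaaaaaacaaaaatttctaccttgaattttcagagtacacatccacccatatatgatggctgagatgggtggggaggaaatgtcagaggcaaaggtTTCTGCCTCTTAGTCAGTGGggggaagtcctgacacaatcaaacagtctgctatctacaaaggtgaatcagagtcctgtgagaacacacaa
Ms4a4c: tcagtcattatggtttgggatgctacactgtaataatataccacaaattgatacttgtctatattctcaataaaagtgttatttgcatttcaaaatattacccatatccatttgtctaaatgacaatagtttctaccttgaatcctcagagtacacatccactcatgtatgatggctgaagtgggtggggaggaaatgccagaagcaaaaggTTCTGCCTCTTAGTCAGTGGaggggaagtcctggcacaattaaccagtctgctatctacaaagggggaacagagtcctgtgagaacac
The other 26 pairs had a median identity of 45.7% and a highest identity of 49.4%, and their longest shared run was 12 bases. The promoter of Ms4a2 (chr19:11623670-11623969, minus strand) is shown for its 3 matches to AGATAA, the letters bound by GATA factors, of which GATA2 is known in mast cells. The matches, on either strand, start 224, 37 and 11 bases before the start of the gene and are in capitals:
Ms4a2: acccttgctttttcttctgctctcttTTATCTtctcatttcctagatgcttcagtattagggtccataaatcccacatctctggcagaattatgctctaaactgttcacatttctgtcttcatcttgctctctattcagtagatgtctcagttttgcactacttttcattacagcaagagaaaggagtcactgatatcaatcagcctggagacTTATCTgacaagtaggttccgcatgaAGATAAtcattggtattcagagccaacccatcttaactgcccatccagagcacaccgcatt
AGATAA was present in 11.4% of the 27025 RefSeq promoter windows of the same length, and in 1 of the 8 member promoters. AGGAAGT, a core of ETS sites, was present in the promoters of Ms4a6b and Ms4a6c, inside the shared run in each and once more in Ms4a6b, and in 9.57% of all windows. TTGCNNAA, a C/EBP core, was present in Ms4a3 and in 10.8% of all windows. GAGGAAGT (PU.1) was found in 0 of the 8 promoters and in 3.28% of all windows. GAAA, 2 bases of any kind and GAAA (IRF) were found in 0 of 8 and in 3.49%, and TCCC, 2 bases of any kind and GGGA (EBF) in 0 of 8 and in 0.914%. GAGGAAGT contains AGGAAGT. The motifs were chosen after the promoters had been read.

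Library totals were 16.34 to 19.68 M counts in donor, 16.3 to 19.05 M in host and 15.71 to 18.56 M in control cells. They were 41.21 to 63.97 M in stroma of transplanted mice and 50.73 to 143.23 M in control stroma, and 32.48 to 44.85 M in CD11b cells of transplanted mice and 35.53 to 42.98 M in control CD11b cells. The 6 pan-leukocyte genes summed to 3208 to 4663 CPM (counts per 1000000, scaled between libraries) in donor cells, 3640 to 5218 CPM in host cells and 3881 to 4700 CPM in control cells. They summed to 179 to 1355 CPM in stroma of transplanted mice and 219 to 1027 CPM in control stroma, so leukocyte RNA was present in the stroma sort. The 11 stromal and endothelial genes summed to 4307 to 23100 CPM in stroma of transplanted mice and 8924 to 25250 CPM in control stroma, and were at most 67.2 CPM in any CD45-sorted library. Stroma of animal N032 stood apart, with the lowest sums of both lists. One donor library, of animal N204, is titled donor cells, while another label calls it recipient-derived; its Ms4a1 level lay with the other donor libraries.

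Per length, in deposited TPM (transcripts per 1000000), Ms4a3 was the most abundant of the 10 genes in all 7 groups. It made up 53.7% ± 6.70 of their summed TPM in donor cells (SD, n = 7) and 42.7% ± 6.61 in host cells (n = 7), against 45.23% ± 3.96 in control cells (n = 8). Ms4a6c came next, with 21.0% ± 2.66 in donor cells and 24.2% ± 2.45 in host cells, against 22.5% ± 2.23 in control cells. Ms4a7 was the least abundant in host and control cells, and Ms4a1 in donor cells. The summed level of the 10 genes was 802.5 ± 87.1 TPM in donor cells and 782.2 ± 49.4 TPM in host cells, against 565.9 ± 43.0 TPM in control cells. It was 115.6 ± 64.9 TPM in stroma of transplanted mice (n = 7) and 101.8 ± 45.9 TPM in control stroma (n = 8), and 670.4 ± 116.1 TPM in CD11b cells of transplanted mice and 502.2 ± 21.5 TPM in control CD11b cells (n = 3 each).

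**Figure D1:**
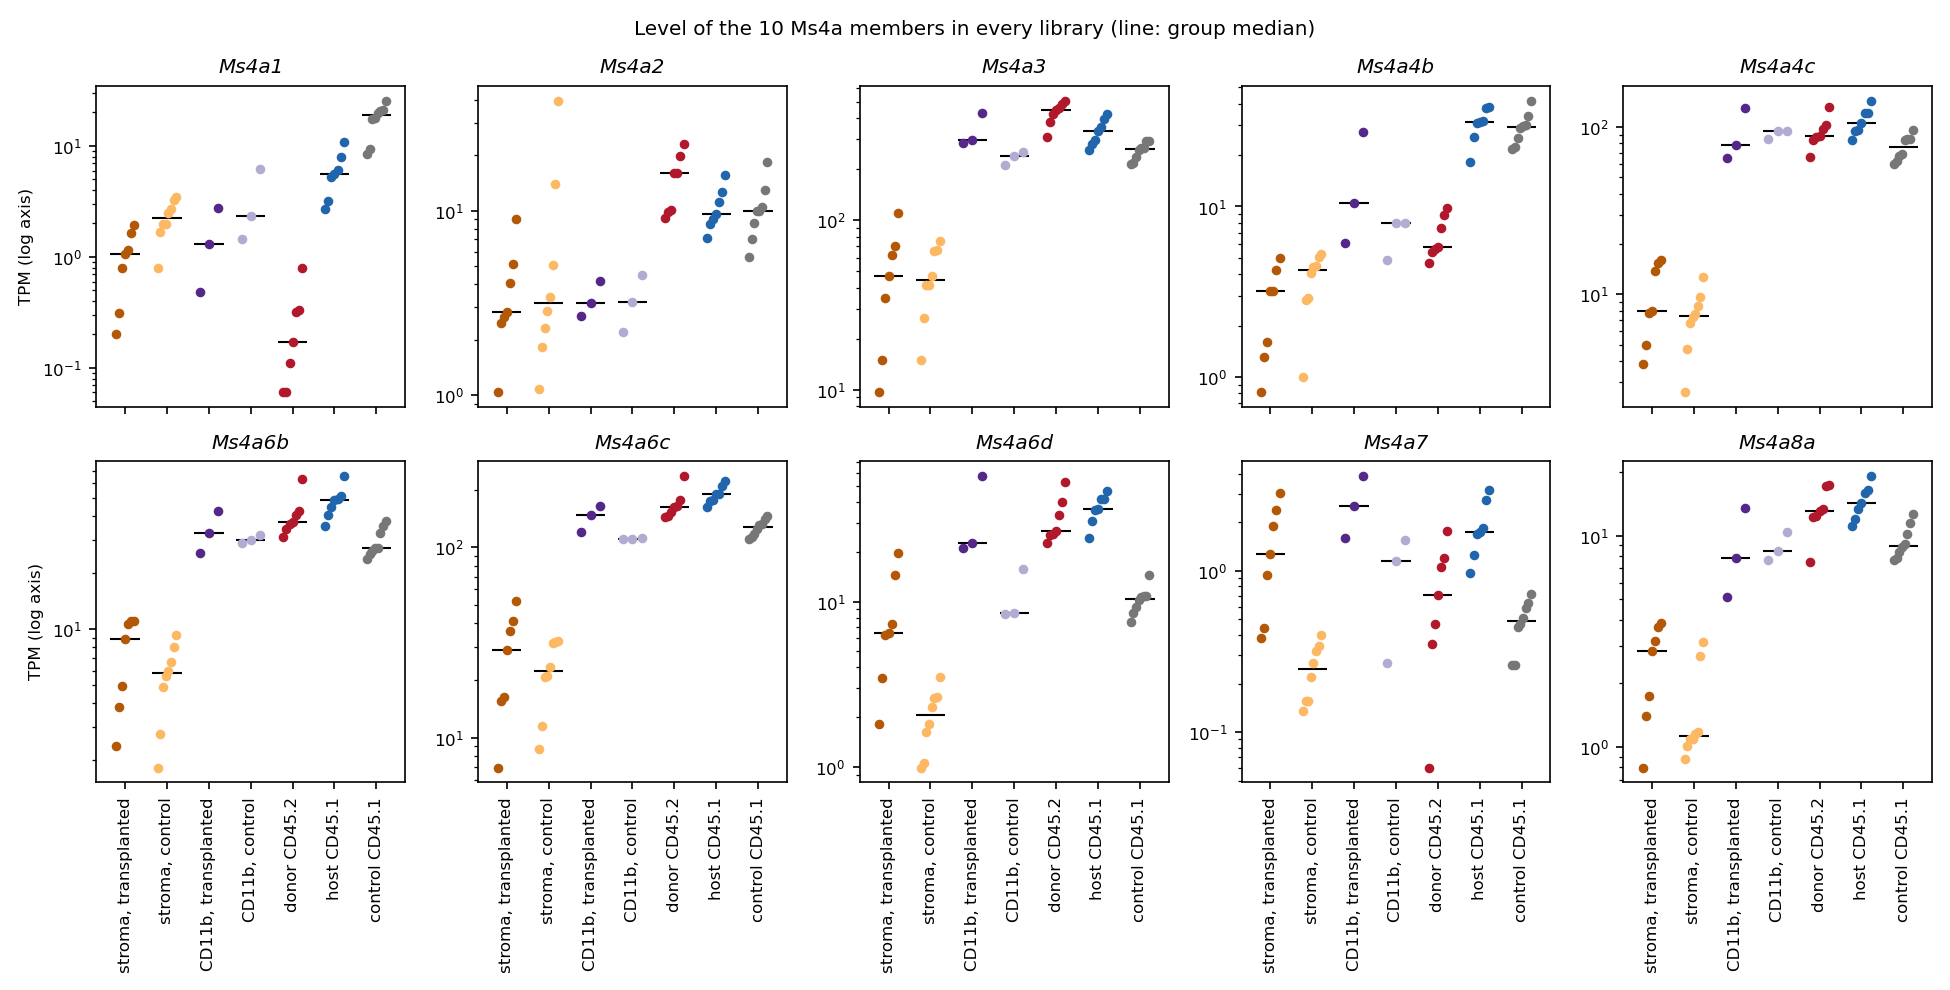
Level of each of the 10 genes in every library of the 7 groups, in TPM on a log axis, with stroma, CD11b cells and CD45 sorts from left to right; each point is a library and each line the group's median. Ms4a1 had its lowest median in donor cells at 0.17 TPM, and Ms4a6d its highest in host cells at 36.2 TPM.

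The 10 genes did not move as a block. In host cells against control cells, all 10 could be tested, 6 passed as higher and 1 as lower, with a median log2 fold change of 0.43 (0.01 over all genes tested). Tests used edgeR's quasi-likelihood F-test with Benjamini-Hochberg adjustment over all genes, and a call means an adjusted p below 0.05; of all genes, 8.61% passed as higher and 7.82% as lower. In donor cells against control cells, 9 of the 10 could be tested, since Ms4a7 did not pass the filter on low counts; 4 passed as higher (22.7% of all genes) and 2 as lower (23% of all genes). The share passed as higher or lower in donor cells, 6 of 9 genes, is read against 45.7% of all genes tested. The host and the donor comparison share the 8 control libraries, so their values are given side by side and their agreement is not counted. In donor cells against host cells, all 10 could be tested, 1 passed as higher (4.17% of all genes) and 5 as lower (9.94%), with a median of -0.25. This fit leaves out the mouse that donor and host cells share. With the animal as a block, 2 passed as higher and 7 as lower, and more of all genes passed too, as given below.

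**Figure D2:**
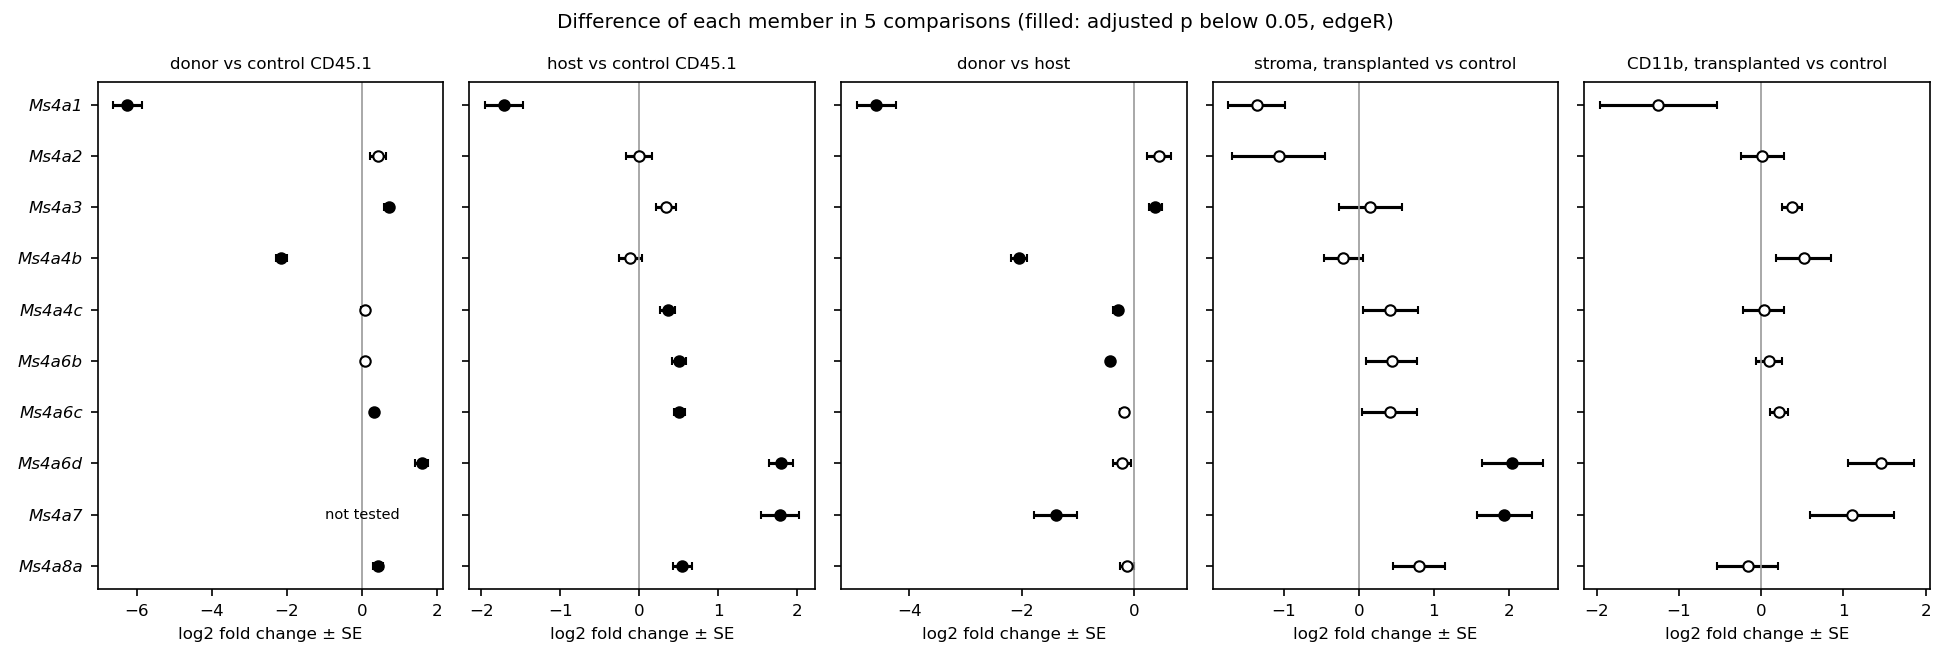
Log2 fold change of each of the 10 genes in the main comparisons, with bars of 1 standard error; filled points passed at an adjusted p below 0.05. Ms4a1 was lower by 6.25 in donor cells and by 1.71 in host cells against control cells, while Ms4a6d was higher by 1.58 and 1.79.

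Ms4a1, the B-cell gene, was the member with the widest span between groups. It was read at 0.106 to 1.69 CPM in donor cells (median 0.481) and 6.73 to 23.0 CPM in host cells (median 11.7), against 19.1 to 66.3 CPM in control cells (median 40.2). The 7 donor libraries lay below all host and all control libraries, and 4.28% of all genes were apart in this way from host cells and 9.77% from control cells. Host and control ranges overlapped for Ms4a1, and 0 of the 10 genes lay wholly below control cells in host cells (0.696% of all genes). The log2 fold change was -6.25 ± 0.38 (SE; adjusted p = 1.15e-09, edgeR) in donor cells and -1.71 ± 0.24 (adjusted p = 3.27e-04) in host cells, each against control cells. Donor cells against host cells gave -4.59 ± 0.35 (adjusted p = 1.69e-07). The donor level rests on 2 to 26 counts in a library.

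Markers of B cells moved with Ms4a1 in donor and host cells. All 15 mature B-cell genes of a fixed list, which leaves Ms4a1 out, passed as lower in donor cells (median -4.97) and in host cells (median -1.41) against control cells, and so did all 8 early B-cell genes. Summed, the mature list was 28.9 to 74.9 CPM in donor cells and 200.1 to 680.4 CPM in host cells, against 485.3 to 1451 CPM in control cells. Ms4a1 was lower in donor cells even relative to that list. Its log2 level minus the list's mean log2 level was -1.48 ± 0.29 in donor cells and -0.71 ± 0.16 in host cells, against -0.46 ± 0.16 in control cells (SD, n = 7, 7 and 8). The difference was -1.03 for donor against control cells, with an exact two-sided permutation p of 1.55e-04, the smallest this design allows, and an adjusted p of 0.00259 over 50 such ratios. It was -0.77 for donor against host cells (exact permutation, unpaired, adjusted p = 0.00583) and -0.26 for host against control cells (exact permutation, adjusted p = 0.036). Unpaired means that donor and host libraries were permuted without regard to the mouse they share, which limits that p-value. The host difference passed in 5 of the 15 tests that left out 1 library. With 0.1 CPM in place of 0.5 CPM added before the log, the differences were -1.55, -1.28 and -0.26, and all 3 passed.

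In stroma, Ms4a1 was read at 0.429 to 4.96 CPM in transplanted mice (median 2.57), against 1.98 to 8.43 CPM in controls (median 5.47). The ranges overlapped, and the log2 fold change of -1.36 ± 0.38 did not pass (adjusted p = 0.105, edgeR), although DESeq2 gave -1.38 with an adjusted p of 0.00616. It passed in 3 of 10 alternatives other than leaving out 1 library, DESeq2 and limma on both TPM scales. The B-cell lists did not fall with it there: 0 of 15 mature genes passed (median 0.15) and 0 of 8 early genes (median 0.485). Whether the early list reads B cells alone in the stroma sort was not tested. In control stroma against control CD45.1 cells, 4 of its 8 genes passed as lower and 1 as higher (36.3% and 53.3% of all genes). All 15 mature genes passed as lower there. CD11b cells had 3.35, 7.15 and 0.915 CPM in transplanted mice, against 16.9, 3.97 and 6.22 CPM in controls, and the log2 fold change of -1.25 ± 0.71 did not pass (adjusted p = 0.389). It was -2.11 without N116 and -0.77 without N129 of the transplanted mice, and -0.42 without N128 of the controls. Over the 7 groups, the median level was 0.17 TPM in donor cells, 5.64 TPM in host cells, 1.07 TPM in stroma of transplanted mice and 1.32 TPM in CD11b cells of transplanted mice, against 18.9 TPM in control cells, 2.23 TPM in control stroma and 2.34 TPM in control CD11b cells. In order from high to low, control cells stood first and donor cells last, and every neighbouring pair of groups overlapped.

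Ms4a4b, the T-cell gene, divided donor cells from the rest. Its level was 3.35 to 5.66 CPM in donor cells (median 4.89) and 12.5 to 22.5 CPM in host cells (median 18.9), against 14.6 to 25.7 CPM in control cells (median 20.8). All donor libraries lay below all host and control libraries, and host and control cells overlapped almost fully. Of all genes, 4.28% lay wholly below host cells and 9.77% below control cells in this way. Its log2 fold change was -2.15 ± 0.15 in donor against control cells (adjusted p = 5.22e-09, edgeR) and -2.04 ± 0.15 in donor against host cells (adjusted p = 1.09e-07). In host against control cells it was -0.11 and did not pass (adjusted p = 0.627).

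The 11 T-cell marker genes all passed as lower in donor cells, with medians of -3.77 against control and -3.64 against host cells, and 1 of them passed as lower in host cells. Their sum was 19.02 to 35.8 CPM in donor cells and 91.1 to 189.5 CPM in host cells, against 142.2 to 285.9 CPM in control cells. Ms4a4b fell less than the list. Its log2 level relative to the list was 1.47 ± 0.20 in donor cells and 0.64 ± 0.12 in host cells, against 0.50 ± 0.17 in control cells (SD, n = 7, 7 and 8). The difference was 0.97 for donor against control cells (exact permutation, adjusted p = 0.00259) and 0.83 for donor against host cells (exact permutation, unpaired, adjusted p = 0.00583). With 0.1 CPM added in place of 0.5 CPM these were 1.46 and 1.31. All 5 NK-cell genes also passed as lower in donor cells against control cells.

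CD11b cells of transplanted mice had 6.55, 6.96 and 15.9 CPM of Ms4a4b, against 6.08, 6.78 and 7.74 CPM in control CD11b cells. The high library, N129, also had the highest sums of T-cell genes (60.8 CPM, against 19.9 to 24.3 CPM in the other 5 CD11b libraries) and of NK-cell genes (22.3 CPM). The fitted log2 fold change of 0.52 did not pass (adjusted p = 0.440, edgeR), and without N129 it was -0.02. In stroma the gene was at 1.48 to 3.89 CPM in transplanted mice (median 3.06) and 2.09 to 4.77 CPM in controls (median 3.18). These ranges overlapped and the log2 fold change was -0.20 (adjusted p = 0.993). Over the groups, median Ms4a4b was highest in host and control cells, at 31.2 TPM in host and 29.2 TPM in control cells, and lowest in stroma of transplanted mice at 3.19 TPM, and every neighbouring pair overlapped.

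Ms4a3, the gene of granulocyte and monocyte precursors, was highest in donor cells. The level was 216.3 to 340.5 CPM in donor cells (median 290.2) and 165.3 to 270.3 CPM in host cells (median 205.6), against 142.3 to 228.5 CPM in control cells (median 163.4). The ranges of donor and control cells overlapped slightly. The log2 fold change was 0.71 ± 0.12 in donor against control cells (adjusted p = 9.03e-05, edgeR) and 0.33 ± 0.12 in host against control cells, which did not pass (adjusted p = 0.0756). Donor cells were above the host cells of the same mouse in 7 of 7 mice, by 0.24 to 0.74 on the log2 scale. Its log2 fold change of 0.38 ± 0.12 in donor against host cells passed narrowly (adjusted p = 0.0485), and it passed in 4 of the 14 fits that left out 1 library and on neither TPM scale (limma, adjusted p = 0.0838 and 0.0865).

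Of 9 primary-granule genes, 7 passed as higher in donor cells (median 0.57) and 4 in host cells (median 0.36) against control cells. Of all genes, 22.7% and 8.61% did. Relative to the primary-granule list Ms4a3 differed by 0.19 in donor against control cells, which did not pass (exact permutation, adjusted p = 0.286). In CD11b cells Ms4a3 was 217.7, 227.7 and 280.2 CPM in transplanted mice, against 168.7, 182.2 and 207.5 CPM in controls. These ranges did not overlap, as for 12.2% of all genes in the same direction, and the log2 fold change of 0.38 ± 0.13 did not pass (adjusted p = 0.270). Median Ms4a3 was 447.2 TPM in donor cells, 338.2 TPM in host cells and 298.6 TPM in CD11b cells of transplanted mice, against 264.0 TPM in control cells and 240.1 TPM in control CD11b cells. It was 46.9 TPM in stroma of transplanted mice and 44.3 TPM in control stroma, apart from the other 5 groups, whose neighbours in order overlapped.

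Ms4a2, the mast-cell and basophil gene, did not pass in any comparison with control mice. It stood at 11.6 to 25.8 CPM in donor cells (median 16.7) and 8.23 to 20.0 CPM in host cells (median 13.3), against 8.51 to 21.7 CPM in control cells (median 13). All 3 ranges overlapped. The fitted log2 fold change was 0.42 ± 0.21 in donor cells (adjusted p = 0.109, edgeR) and -0.01 in host cells (adjusted p = 0.980), each against control cells. Donor cells were above the host cells of the same mouse in 5 of 7 mice. The log2 fold change between them was 0.45 without the animal as a block (adjusted p = 0.171) and 0.43 with it (adjusted p = 0.0190). Of the mast and basophil genes, 4 of 10 tested passed as higher in donor against host cells (4.17% of all genes), and 3 of 9 in donor against control cells (22.7% of all genes).

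In stroma, Ms4a2 was at 1.45 to 9.87 CPM in transplanted mice (median 4.89), against 1.54 to 48.5 CPM in controls (median 4.45). A single control library, N093, held the highest value, and the mast and basophil genes summed to 2411 CPM in it, the highest of the 15 stroma libraries. Its log2 fold change of -1.07 did not pass (adjusted p = 0.791), and without N093 it was -0.19. CD11b cells had 4.26 to 6.47 CPM in transplanted mice and 3.85 to 6.30 CPM in controls, with a log2 fold change of 0.02 (adjusted p = 0.982). In order of median TPM the 3 CD45 sorts stood above CD11b cells and stroma, with donor cells at 15.97 TPM, host cells at 9.61 TPM and control cells at 10.0 TPM. The break between host cells and control CD11b cells was the only step at which neighbours did not overlap.

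The monocyte genes Ms4a6c, Ms4a6b and Ms4a4c were all higher in host cells. Ms4a6c, the second most abundant member, was read at 140.7 to 202.6 CPM in donor cells (median 167.7) and 168.1 to 208.9 CPM in host cells (median 188.4), against 115.9 to 153.8 CPM in control cells (median 124.7). All 7 host libraries lay above all 8 control libraries, as for 1.91% of all genes, and donor and control cells overlapped. The fitted log2 fold change was 0.33 ± 0.08 in donor cells (adjusted p = 0.00303, edgeR) and 0.51 ± 0.07 in host cells (adjusted p = 3.83e-04), each against control cells.

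Ms4a6b, the gene with the promoter most like that of Ms4a6c in its shared run, was read at 35.6 to 47.4 CPM in donor cells (median 39.1) and 46.8 to 58.1 CPM in host cells (median 51.9), against 30.2 to 49.5 CPM in control cells (median 35.9). Host cells were higher than control cells by 0.50 ± 0.09 (adjusted p = 0.00199), and donor cells by 0.08, which did not pass (adjusted p = 0.507). Donor cells were lower than host cells by a log2 fold change of -0.42 ± 0.06 (adjusted p = 1.71e-04), and by -0.24 on log2(TPM + 1), which did not pass (limma, adjusted p = 0.284). The donor value against control cells passed on the TPM scale, where the log2(TPM + 1) difference was 0.43 (limma, adjusted p = 0.0279).

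Ms4a4c was read at 29.2 to 47.4 CPM in donor cells (median 40.1) and 36.2 to 54.6 CPM in host cells (median 48.0), against 29.2 to 46.6 CPM in control cells (median 36.1). All 3 ranges overlapped. Host cells were higher than control cells by 0.36 ± 0.09 (adjusted p = 0.0140, edgeR), donor cells differed from control cells by 0.07 (adjusted p = 0.581), and donor cells were lower than host cells by a log2 fold change of -0.29 ± 0.08 (adjusted p = 0.0281), which passed in 8 of the 14 fits that left out 1 library and on neither TPM scale (limma, adjusted p = 0.200 and 0.202). Within mice, donor cells were below host cells in 7 of 7 mice for Ms4a4c and for Ms4a6b, and in 6 of 7 for Ms4a6c. The Ms4a6c difference was -0.18 and passed with the animal as a block (adjusted p = 0.00647) but not without it (adjusted p = 0.0835).

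Ms4a8a, a gene described in macrophage subsets, was read at 6.20 to 10.8 CPM in donor cells (median 9.12) and 8.02 to 11.9 CPM in host cells (median 9.45), against 5.30 to 8.32 CPM in control cells (median 6.28). The lowest host library lay just below the highest control library, and donor and control ranges overlapped. The log2 fold change was 0.42 ± 0.13 in donor cells (adjusted p = 0.0161, edgeR) and 0.55 ± 0.12 in host cells (adjusted p = 0.00537), each against control cells, and -0.12 in donor against host cells (adjusted p = 0.582). The donor call was lost with a day block (0.40, adjusted p = 0.101), on both TPM scales (limma, adjusted p = 0.0512 and 0.0536), within either sex, and without the donor library of N279 (0.35, edgeR, adjusted p = 0.0508). The host call was lost with a day block (0.54, adjusted p = 0.0581) and within either sex (adjusted p = 0.114 and 0.146). Fewer of all genes passed in the host fits by sex too. The day block kept only libraries from days found in both groups, so it also held fewer samples.

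Of 16 monocyte marker genes, 4 passed as higher and 3 as lower in donor cells (median 0.13), and 8 passed as higher and 1 as lower in host cells (median 0.36), each against control cells. Of all genes, 22.7% passed as higher and 23% as lower in donor cells, and 8.61% and 7.82% in host cells. The sum of the monocyte genes was 4756 to 6013 CPM in donor cells and 5620 to 6019 CPM in host cells, against 4176 to 5690 CPM in control cells. Relative to this list, Ms4a4c, Ms4a6b, Ms4a6c and Ms4a8a did not pass in host against control cells, with differences of -0.17 to -0.03 (exact permutation, adjusted p = 0.286 to 0.869). Ms4a6c relative to the list was 0.22 higher in donor than in host cells (exact permutation, unpaired, adjusted p = 0.00971). In that comparison 5 of the 16 list genes passed as lower, against 9.94% of all genes.

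Ms4a6d, a gene of monocytes and macrophages, had the highest log2 fold change of the members tested in each of the 4 comparisons with control mice. Its level was 20.0 to 41.8 CPM in donor cells (median 25.4) and 22.3 to 41.1 CPM in host cells (median 31.9), against 6.81 to 12.0 CPM in control cells (median 9.59). All 7 donor and all 7 host libraries lay above all 8 control libraries, as for 6.84% of all genes in donor cells and 1.91% in host cells. Its log2 fold change was 1.58 ± 0.16 in donor cells (adjusted p = 6.05e-07, edgeR) and 1.79 ± 0.15 in host cells (adjusted p = 1.24e-06), each against control cells. Donor cells differed from host cells by -0.21 (adjusted p = 0.460), and by -0.22 with the animal as a block (adjusted p = 0.0371).

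Ms4a7, a macrophage gene, was the scarcest member in host and control cells and was higher in host cells. It was read at 0.0535 to 1.42 CPM in donor cells (median 0.556) and 1.06 to 2.13 CPM in host cells (median 1.32), against 0.180 to 0.646 CPM in control cells (median 0.399). All host libraries lay above all control libraries, as for 1.91% of all genes, and donor cells spanned both. The fitted log2 fold change was 1.78 ± 0.24 in host against control cells (adjusted p = 2.26e-04, edgeR) and -1.39 ± 0.38 in donor against host cells (adjusted p = 0.0234). In all 7 mice the donor library was below the host library, on 1 to 24 counts a donor library, and the value passed in 11 of 14 fits that left out 1 library.

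Among macrophage marker genes, 5 of 11 tested passed as higher in donor cells (median 0.43) and 10 of 12 in host cells (median 0.75) against control cells. Of all genes, 22.7% and 8.61% did. The sum of the macrophage genes was 302.1 to 363.2 CPM in donor cells and 330.9 to 382.7 CPM in host cells, against 243.9 to 282.7 CPM in control cells. Ms4a6d rose more than this list, by 1.20 in donor against control cells (exact permutation, adjusted p = 0.00259) and by 0.58 in host against control cells (exact permutation, adjusted p = 0.0111). With 0.1 CPM added in place of 0.5 CPM, the host difference was 0.30 and did not pass (exact permutation, adjusted p = 0.289). Ms4a7 relative to the list was -0.07 in host against control cells and did not pass (exact permutation, adjusted p = 0.753). Whether the rises come from more macrophages, more RNA in each or both was not tested.

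**Figure D3:**
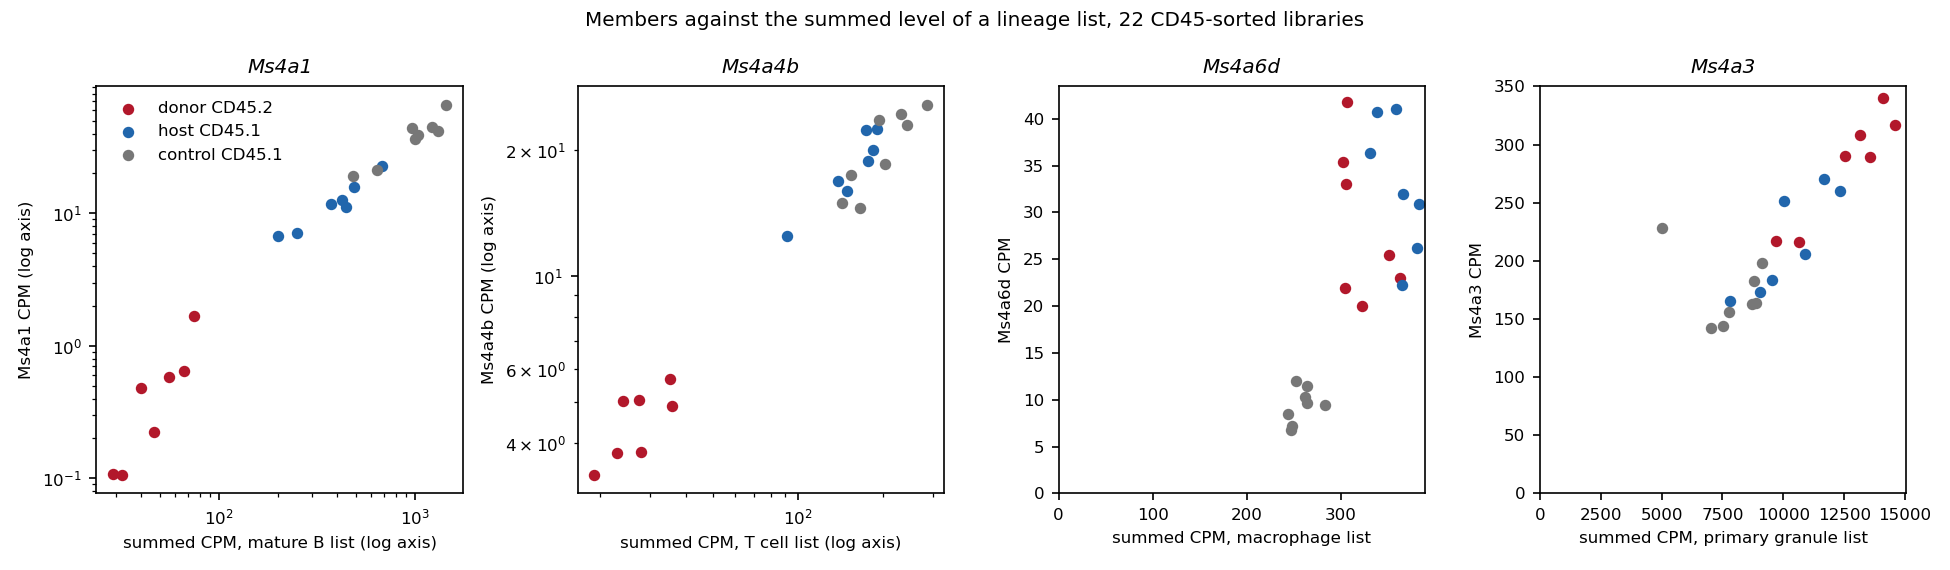
Ms4a1, Ms4a4b, Ms4a3 and Ms4a6d, each in CPM against the summed CPM of its lineage marker list in the CD45-sorted libraries; each point is a library. For Ms4a6d the donor and host libraries, at 20.0 CPM and above, lie over the control libraries, at 12.0 CPM and below.

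In stroma the 2 members that passed were Ms4a6d and Ms4a7. All 10 genes could be tested, and 2 passed as higher in transplanted mice, while 0 passed as lower; of all genes, 1.49% passed, 0.466% as higher and 1.03% as lower. The median log2 fold change of the 10 genes was 0.42, against 0.04 over all genes. Ms4a6d was 1.89 to 18.5 CPM in transplanted mice (median 7.70), against 0.920 to 3.48 CPM in controls (median 2.08). That was a log2 fold change of 2.05 ± 0.41 (adjusted p = 0.0129, edgeR). Ms4a7 was 0.429 to 2.12 CPM in transplanted mice (median 1.18), against 0.164 to 0.735 CPM in controls (median 0.289), with a log2 fold change of 1.94 ± 0.37 (adjusted p = 0.00895). For both genes the ranges overlapped, and 0 of the 10 genes lay wholly above control stroma (0.233% of all genes). The lowest transplanted library was N032 for Ms4a6d, with 1.89 CPM, and N269 for Ms4a7, with 0.429 CPM. Both calls were kept when any 1 of the 15 libraries was left out, but both were lost in fits of 1 sex. There the log2 fold changes were 1.65 to 2.25 (edgeR, adjusted p = 0.231 to 0.369), and fewer of all genes passed too. The Ms4a6d call was also lost on log2(TPM + 1) and log2(TPM + 0.1), at 1.39 and 1.72 (limma, adjusted p = 0.0614 and 0.0548), while Ms4a7 passed there at 0.87 and 1.89. Without N032 the log2 fold changes were 2.19 for Ms4a6d and 2.06 for Ms4a7.

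Of the marker lists in stroma, erythroid genes had a median log2 fold change of 2.43, above that of either member. Of 15 macrophage genes, 3 passed as higher, and their sum was 188.6 to 711.1 CPM in transplanted mice against 387.6 to 835.7 CPM in controls. Ms4a6d rose more than that list, by 1.22 (exact permutation, adjusted p = 0.0146), and Ms4a7 by 0.59 (exact permutation, adjusted p = 0.036), a call kept in 5 of the 15 tests that left out 1 library. With 0.1 CPM added, the Ms4a7 value was 1.01. Whether the macrophage list reads macrophages alone in the stroma sort was not tested. In control stroma against control CD45.1 cells, 5 of its 12 genes tested passed as higher and 4 as lower (53.3% and 36.3% of all genes). All 6 pan-leukocyte genes passed as lower there. Of 6 erythroid genes, 4 passed as higher, and their sum was 2035 to 14500 CPM in transplanted mice against 424.6 to 1289 CPM in controls. The part of leukocyte or erythroid RNA in the 2 calls was not tested. The other members gave log2 fold changes of -1.36 (Ms4a1) to 0.80 (Ms4a8a), and Ms4a4c, Ms4a6b and Ms4a6c were near each other at 0.41 to 0.44 with adjusted p of 0.924 to 0.958. The transplant difference in stroma minus that in CD45.1 cells was 0.33 ± 0.43 for Ms4a6d (adjusted p = 0.860, edgeR) and 0.20 ± 0.46 for Ms4a7 (adjusted p = 0.971). The fit left out the mouse that the 2 sorts share. In that test 0 of the 10 genes passed, against 2.69% of all genes, 1.08% positive and 1.61% negative. At an unadjusted p below 0.05 it was 0 of the 10, against 12.4% of all genes.

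In CD11b cells 0 of the 10 genes passed by edgeR, where 0 of 15257 genes passed in all. At an unadjusted p below 0.05, 2506 genes (16.4%) did, and 2 members, Ms4a3 and Ms4a6d. DESeq2 called 291 genes and none of the 10. Ms4a6d was 24.5, 24.1 and 54.7 CPM in transplanted mice, against 19.6, 8.40 and 9.48 CPM in controls. Ms4a7 was 1.71, 2.63 and 3.06 CPM in transplanted mice, against 0.397, 1.55 and 1.5 CPM in controls. In both genes the 3 transplanted libraries lay above the 3 controls, as for 12.2% of all genes. The log2 fold changes were 1.46 ± 0.40 for Ms4a6d (adjusted p = 0.270, edgeR) and 1.11 ± 0.51 for Ms4a7 (adjusted p = 0.319). Of the 3 transplanted libraries, N129 was highest for both genes, and without it the log2 fold changes were 0.96 and 0.92. Ms4a4c, Ms4a6b, Ms4a6c and Ms4a8a had log2 fold changes of -0.16 to 0.22 with adjusted p of 0.332 or more. The transplant difference in CD11b minus that in CD45.1 cells passed for 0 of the 10 genes, against 0.109% of all genes. It had an unadjusted p below 0.05 for 3 of the 10, Ms4a6b, Ms4a6c and Ms4a8a, against 12.6% of all genes.

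Donor and host cells of one mouse were sorted from the same marrow, and in each of the 7 mice the deviations of both libraries from their groups were positively correlated across genes. With the animal as a block, 4605 genes passed between donor and host cells, against 1928 without it. The donor-minus-host difference in log2 level within a mouse was -4.32 to -2.88 for Ms4a1 (median -3.51) and -2.42 to -1.23 for Ms4a4b (median -2.02). The median was -0.66 for Ms4a7, -0.39 for Ms4a6b, -0.25 for Ms4a4c and -0.17 for Ms4a6c, and these 4 differences kept their sign in at least 6 of 7 mice. It was 0.33 for Ms4a3 and 0.50 for Ms4a2, whose difference ran from -0.20 to 1.15. For Ms4a6d the median was -0.30 with 5 of 7 mice negative, and for Ms4a8a it was -0.03 with 4 of 7 mice negative. The order runs from lymphoid members at one end to the precursor and mast-cell members at the other.

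**Figure D4:**
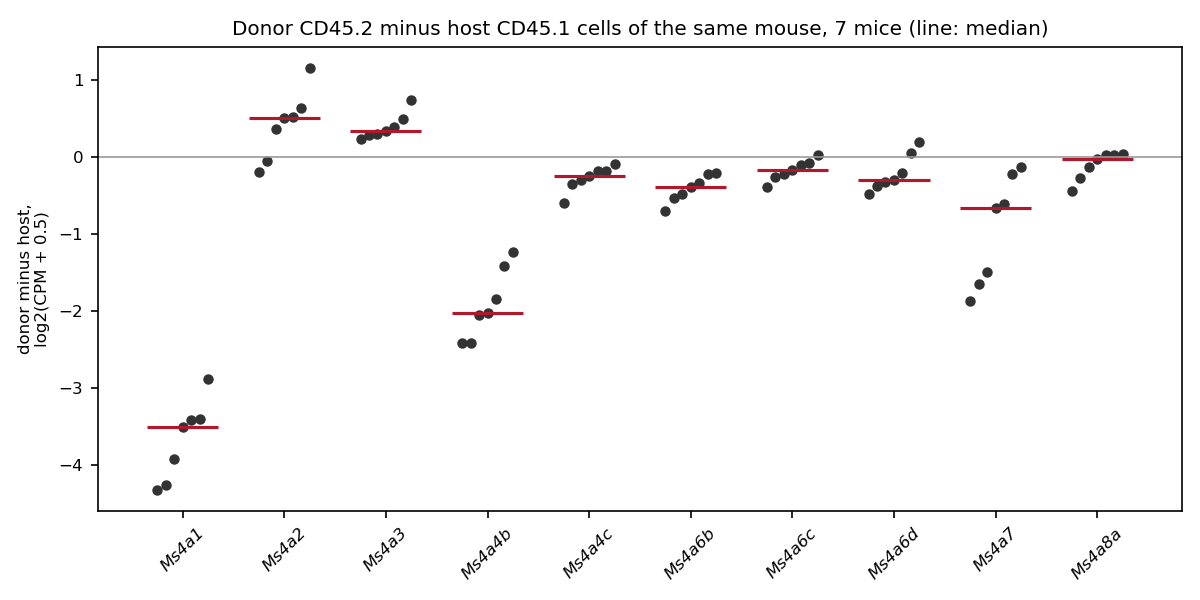
Difference of log2(CPM + 0.5) between donor and host cells of the same mouse for each of the 10 genes; each point is 1 of 7 mice and each line the median. Ms4a1 and Ms4a4b lie below 0 in all 7 mice, with medians of -3.51 and -2.02, and Ms4a3 lies above 0 in all 7.

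The tests of sex and of chimerism rest on few mice, and no gene passed in them. In the test of a sex difference in the transplant effect, 0 of 14073 genes passed in CD45.1 cells and 0 of 26191 in stroma, none of the 10 among them (edgeR). At an unadjusted p below 0.05, 425 genes did in CD45.1 cells and 745 in stroma, again none of the 10, and Ms4a4b had the smallest p of the 10 in CD45.1 cells, at 0.0646. On log2 chimerism over the 7 mice, 0 of 12600 genes passed in host cells and 0 of 12189 in donor cells, where Ms4a1 and Ms4a7 could not be tested. At an unadjusted p below 0.05 the counts were 538 and 242 genes and none of the members. Slopes of the 10 genes in host cells ran from -0.16 (Ms4a1) to 0.14 (Ms4a3) log2 units for each unit of log2 chimerism.

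Leukocyte members were low in the stroma sort of the same control mice. Control stroma against control CD45.1 cells gave 8 of 10 genes lower and 0 higher, where 89.6% of all genes passed, 36.3% as lower and 53.3% as higher, and the median of all genes was 0.53. The log2 fold changes of the 8 genes ran from -3.40 (Ms4a6c) to -2.48 (Ms4a6d), and all 6 pan-leukocyte genes passed as lower, with a median of -3.17. Ms4a7 differed by -0.70 (adjusted p = 0.0560, edgeR). Ms4a2 differed by -0.72 ± 0.58 (adjusted p = 0.246), by -1.5 without the control stroma library of N093 (adjusted p = 0.00162) and by -1.47 with the animal as a block (adjusted p = 0.00943). Without any scaling the median of all genes was 0.87 in place of 0.53.

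Across the 22 CD45-sorted libraries, the gene most like each member in log2 level differed by lineage. Pearson's r is given over 22 libraries that share 3 groups, and again after each group's mean was removed. Ms4a1 was closest to Fcmr, the IgM Fc receptor gene (0.99, then 0.90), followed by Blk and Irf4. Ms4a4b was closest to Cd3e, a chain of the T-cell receptor complex (0.99, then 0.85), followed by Skap1 and Lck. Ms4a2 was closest to Cpa3, a mast-cell carboxypeptidase gene (0.90, then 0.89), followed by the protease genes Mcpt8 and Prss34. Ms4a3 was closest to Ctsg, the gene of cathepsin G (0.97, then 0.93), followed by Vdac2 and Ptgr1. Several of these genes are in the marker lists above. They were ranked by r with the group means left in, so genes that changed alike between groups rank high.

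Among the monocyte and macrophage members, Ms4a6c was closest to Ccr2, a chemokine receptor gene of classical monocytes (0.96, then 0.90), followed by Cd302 and Pros1. Ms4a6d was closest to Vcan (0.95, then 0.68), followed by its family member Ms4a4a (0.94, then 0.79) and Fcgr1. Ms4a4c and Ms4a6b were both closest to Ctss, the gene of cathepsin S (0.86 and 0.89, then 0.78 and 0.74). Ms4a7, which reached 10 counts in 14 of the 22 libraries, was closest to Cadm1 (0.90, then 0.73), followed by Fcrl5 and C1qb. Ms4a8a was closest to Ccl9 (0.82, then 0.55), the lowest first value of the 10.

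Between members, Ms4a4c, Ms4a6b, Ms4a6c and Ms4a6d had r of 0.64 to 0.89 in each pair, again over 22 libraries. Ms4a4c and Ms4a6c had the highest r of these pairs after group means were removed, at 0.81. Before that removal, Ms4a7 had r of 0.574 to 0.813 with these 4 genes, and Ms4a8a 0.405 to 0.655. Ms4a1 and Ms4a4b had r of 0.93, and 0.46 after group means were removed. Of the promoter pairs shown above, Ms4a6b and Ms4a6c are both among these 4 genes, while Ms4a4b and Ms4a4c are known from different lineages.

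**Figure D5:**
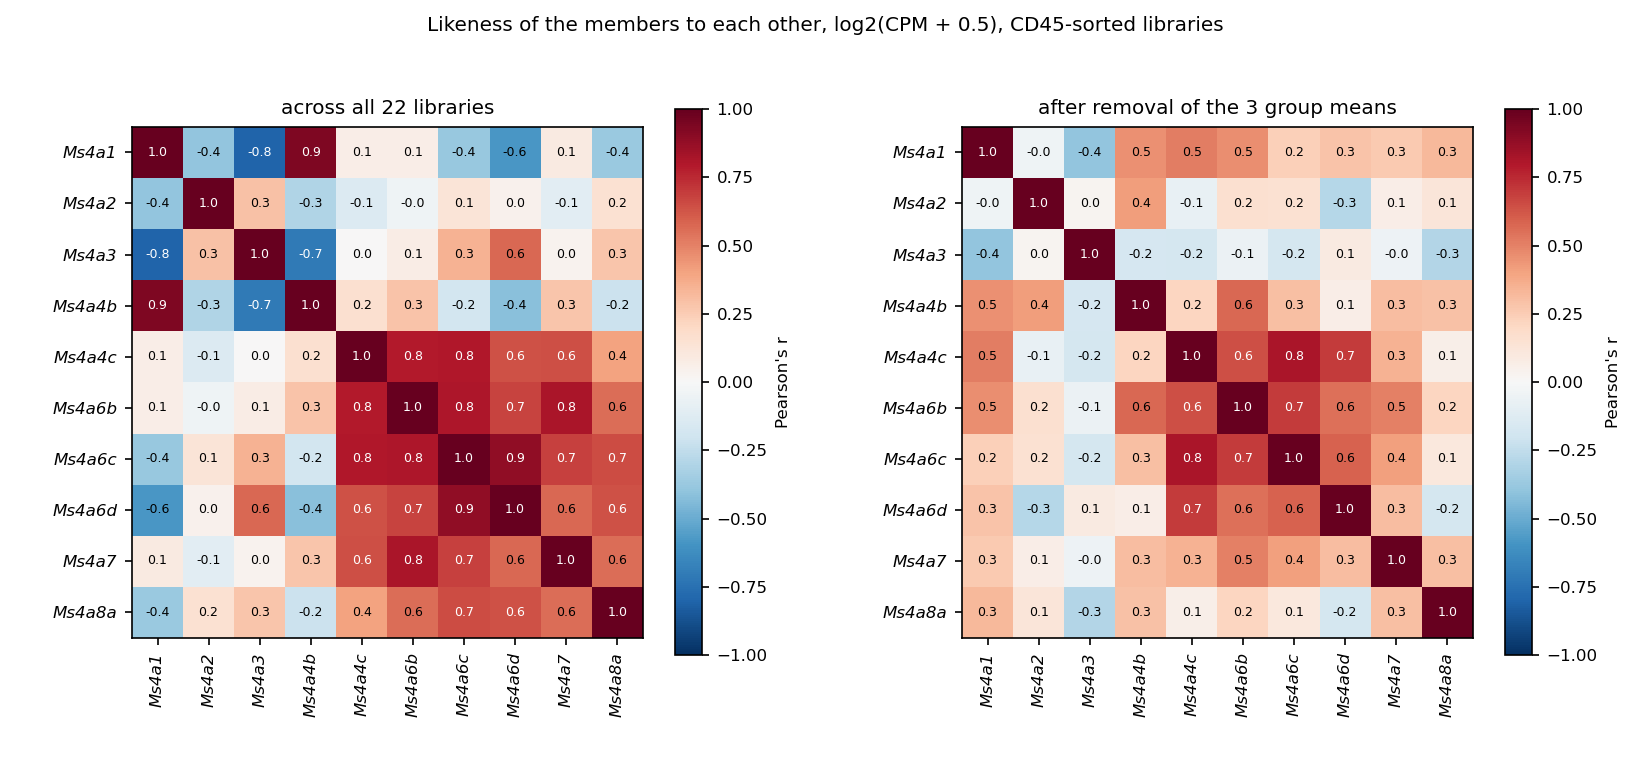
Pearson's r between the 10 genes over the 22 CD45-sorted libraries, from log2(CPM + 0.5), before and after each group's mean was removed. Ms4a1 and Ms4a4b stand together at 0.93. Ms4a4c, Ms4a6b, Ms4a6c and Ms4a6d have 0.64 to 0.89 in each pair, and Ms4a7 has 0.813 with Ms4a6b.

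Reads of near-identical genes can be divided or dropped in counting. Of all 50-base stretches of the GENCODE transcripts, 10.5% of those of Ms4a6c occur in another gene, mostly Ms4a6b, and 8.19% of those of Ms4a4c, mostly Ms4a4b. For the other 8 members the share was 0 to 3.57%. Exons of Ms4a4c and of Ms4a6b each overlap 1 gene on the opposite strand. Of their stretches, 0% and 1.8% occur on the opposite strand of another gene. For Ms4a6c, a further 49.6% of the stretches lie on the opposite strand in BE692007. Without a known strand setting of the counting, the reads of Ms4a6c and BE692007 cannot be told apart. BE692007 itself was read at 0.271 to 1.36 CPM in donor cells and 2.95 to 7.70 CPM in host cells, against 4.94 to 13.6 CPM in control cells. Its median was far below that of Ms4a6c in each of these groups, and its order of groups was the reverse of that of Ms4a6c between host and control cells.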

How the data were processed

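RNA of 43 samples of sorted marrow cells was sequenced. Mice within a group are separate; donor, host and stroma samples share the 7 recipients, and control cells and control stroma the 8 controls. Per the labels' protocols, libraries of CD45-sorted samples are directional, and those of stroma were made from low input and sequenced in 2 runs. The submitters' processing notes name STAR 2.7.3a, GRCm39 and featureCounts of Subread 1.6.2, and RSEM 1.3.3 for the CD11b samples. The gene counts, as deposited, are whole and not normalized, and the deposited TPM values sum to 1000000 in a library. The tool behind the TPM, the annotation, the strand setting and how the 2 stroma runs were merged are not given in the sources used here. A further deposited count table with the same values was not used. Groups were taken from the sample titles; the donor library of N204 has a label that differs from its title.

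Genes passing filterByExpr were scaled by TMM and tested in edgeR 4.0.16 (R 4.3.3) with the quasi-likelihood F-test, on the 2 groups compared, with a term for sex, except for the CD11b samples, which are all male. The Benjamini-Hochberg adjustment ran over all genes tested. CPM are TMM-scaled within a kind of library and were not scaled between kinds. Levels of the members across kinds of library or between members are given in TPM. Marker-list sums, and BE692007 beside Ms4a6c, are given in CPM. A member's ratio is its log2(CPM + 0.5) minus the mean of its marker list, compared by exact two-sided permutation over samples and adjusted over 50 ratios. The permutation of donor against host samples did not keep their pairing within a mouse. Likeness used the 3 named genes of highest r, with a mean CPM of at least 1, for members with at least 10 counts in 3 libraries. Alternatives were DESeq2 1.42.0, limma 3.58.1 on TPM, other scalings and filters, each sex, day and animal blocks, and leaving out each library. Day blocks kept only libraries of days found in both groups, and a block replaced the sex term. Fits were tested on simulated data. Promoter sequences are RefSeq's on GRCm38.p6, and transcript sequences are GENCODE's.

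Donor and host samples of an animal are paired by the animal: their deviations from group means correlated at 0.236 to 0.638 in 7 animals. Control stroma and control CD45.1 samples of an animal gave -0.012 to 0.199 in 8 animals. The 10 genes and the lists were chosen with earlier results of these data known. Genes named besides the 10 are the other Ms4a genes, Tmem176a and Tmem176b, BE692007 and the genes most like each member.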

Additional observations from a re-analysis of the deposited data

Results flagged for a closer look

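Ms4a1 in donor cells had 1 library far above the other 6. Animal N203 was read at 1.693 CPM, and the others at 0.106 to 0.649 CPM; the mature B-cell genes summed to 74.9 CPM in N203, the highest of the 7 donor libraries, and to 28.9 to 66.2 CPM in the other 6. Without N203 the log2 fold change of Ms4a1 was -6.75 in donor against control cells and -5.05 in donor against host cells.

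Ms4a2 in control stroma had 1 library far above the other 7. Animal N093 was read at 48.54 CPM, and the others at 1.54 to 17.5 CPM. The mast and basophil genes also had their highest sum in this library, at 2411 CPM. These are 2 of 50 pairs of a gene and a group looked at, and chance flags about 1 in 20 groups.

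Tmem176a, a gene of the related Tmem176 family, changed differently after transplantation in the 2 sorts of the same mice. Its log2 fold change was -0.11 in stroma and 1.16 in host CD45.1 cells, each against control mice, and the difference of -1.2368 passed (edgeR, adjusted p = 0.0171). Tmem176b had -0.06 in stroma and 1.00 in host cells, and the difference of -1.01 did not pass (adjusted p = 0.0769). These fits left out the mouse that the 2 sorts share, and the sorts also differ in library preparation.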

How the results depend on the processing

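No value changed sign past the threshold under any alternative run. For the members, leaving out 1 library gave 1723 values, of which 1695 kept their call, 20 lost it and 8 gained it; the other alternatives gave 674 values, of which 618 kept it, 37 lost it and 19 gained it. Within 1 sex, 4 members passed as higher in males and 1 in females in host against control cells (6 in both sexes together). In donor against control cells these counts were 3 and 2 (4 together), and in stroma 0 and 0 (2 together). Where the counts are given below, fewer of all genes passed within 1 sex too, and in stroma no gene passed in females. On log2(TPM + 1), Ms4a1 was -3.84 in donor against control and -2.38 in donor against host cells, and Ms4a7 0.93 in host against control cells.

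Numbers of genes passed moved more. In host against control cells 2312 genes passed, 1263 and 1229 on log2(TPM + 1) and log2(TPM + 0.1), 479 in males and 121 in females, and 1527 (without host N014) to 2687 when a library was left out. In donor against control cells 6360 passed, and 3027 in males. In donor against host cells 1928 passed, 1146 and 1142 on the TPM scales, 1136 in males, 450 in females and 4605 with the animal as replicate block. In stroma 391 passed, 750 by DESeq2, 125 in males, 0 in females, 250 with a day block, and 272 to 593 when a library was left out, the highest without N032. In CD11b cells 0 passed, 59 without the filter, 291 by DESeq2, 2 and 3 on the TPM scales, and 0 to 28 when a library was left out, 28 without N187. In control stroma against control CD45.1 cells 17772 passed, 33112 without the filter and 17769 with the animal as block. The sex difference in CD45.1 cells gave 0, 2 without the filter and 0 to 2 when a library was left out, and that in stroma 0 and 0 to 5. The stroma-minus-CD45.1 test gave 619, and 485 to 1713 when a library was left out, the highest without stroma N032. The CD11b-minus-CD45.1 test gave 17, 34 with RLE size factors, 95 without the filter, and 0 to 312 when a library was left out. The slopes gave 0, and without the filter 3 in host and 19 in donor cells. Ratios that passed numbered 11, and 9 to 12 when a library was left out. The cause of these moves was not tested, beyond fewer samples in the fits by sex and in the stroma fit with a day block.

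With the replicate block, Ms4a2, Ms4a6c and Ms4a6d also passed between donor and host cells, and Ms4a2 between control stroma and control cells; it changed no other call of a member. Ms4a1 and Ms4a7 in donor cells and Ms4a7 in control cells rest on few counts, which limits those values.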

Other observations

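Of the 11 other Ms4a genes, only Ms4a4a could be tested in all of the comparisons with control mice. Ms4a4a, described in alternatively activated macrophages, was read at 6.72 to 24.1 CPM in donor cells (median 18.7) and 13.9 to 26.8 CPM in host cells (median 21.1), against 5.45 to 7.72 CPM in control cells (median 6.78). All host libraries lay above all control libraries, as for 1.91% of all genes, and donor and control cells overlapped. Its log2 fold change was 1.27 ± 0.21 in donor cells (edgeR, adjusted p = 9.76e-05) and 1.61 ± 0.15 in host cells (adjusted p = 4.71e-06). In stroma it was 1.11 to 7.90 CPM in transplanted mice, against 0.600 to 2.00 CPM in controls, and passed with 1.78 ± 0.40 (adjusted p = 0.0310).

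Ms4a4d was a gene of the stroma sort. It was read at 8.02 to 53.4 TPM in stroma of transplanted mice (median 25.5) and 21.8 to 52.7 TPM in control stroma (median 36.0), and the log2 fold change of -0.21 ± 0.32 did not pass (edgeR, adjusted p = 0.998). The 28 CD45-sorted libraries held 0 to 2 counts of it each. Of the 10 genes described above, only Ms4a3 had a higher median in control stroma, at 44.3 TPM, and only Ms4a3 and Ms4a6c in stroma of transplanted mice, at 46.9 and 28.9 TPM. Ms4a5, Ms4a10, Ms4a12, Ms4a13, Ms4a18 and Ms4a19 were at most 0.130 TPM in any stroma library. Tmem176a was read at 22.9 to 42.1 CPM in donor cells and 29.8 to 48.0 CPM in host cells, against 13.9 to 20.5 CPM in control cells, and the 3 CD11b libraries of transplanted mice, at 18.7 to 25.0 CPM, lay above the 3 of controls, at 8.15 to 13.8 CPM, as did 12.2% of all genes in CD11b cells, where 0 genes passed by edgeR (2506 at an unadjusted p below 0.05) and 291 by DESeq2.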
